A study of Mus musculus with 6 samples.

Results

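The genes described here are 36 genes of mouse chromosome 10 that lie within 5 Mb of Tnfaip3, the gene targeted in the study. Tnfaip3 encodes A20, a ubiquitin-editing enzyme that limits NF-κB signalling. They were chosen by position from a list of symbols, with Tnfaip3 itself left out. All 36 were found among the 24062 genes of the count table, and 24 of them had enough reads to be tested. RNA was sequenced from mouse hematopoietic cells that had been lineage-negative at the start and were transformed with a retrovirus carrying MLL-AF9, an oncogenic fusion found in acute leukemia. The cells labelled KO came from A20 f/f mice, in which the A20 gene is flanked by sites for Cre recombinase, and the cells labelled WT came from A20 +/+ mice, with 3 libraries each. Both groups carried Rosa Cre-ER, a tamoxifen-activated Cre recombinase whose name refers to the Rosa locus. Both groups also received 1 µM 4-hydroxytamoxifen for 48 h and grew in IL-3, IL-6 and SCF. The sources used here give neither the strain and number of the mice nor the number of transduced cultures.

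A gene altered by targeting in embryonic stem cells is inherited together with the chromosome on which it was made. Neighbouring genes keep the sequence of the stem cell strain until recombination separates them, and genes carried along in this way are called passengers. The neighbourhood of Tnfaip3 holds several genes that matter in blood cells. Myb encodes a transcription factor needed by hematopoietic progenitors and by MLL-AF9 leukemia cells, Ifngr1 encodes the ligand-binding chain of the interferon gamma receptor, and Map3k5 encodes the stress kinase ASK1. The comparison was between the 2 groups for each of these neighbours, in relation to distance from Tnfaip3.

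The libraries held 16113320 to 25415274 counted reads. Tnfaip3 had 100.1, 74.1 and 79.1 CPM (counts relative to library size, scaled by TMM) in KO-labelled libraries, against 7.39, 8.67 and 8.24 CPM in WT-labelled libraries. The targeted gene was thus higher under the KO label, and the groups are called by their labels throughout. Whether labels were exchanged was not settled here, and if they were, every direction below would turn round. Its counts are per gene and not per exon, so they do not measure the deletion. Xist, which is transcribed in female cells, had 0 to 4.77 CPM in KO-labelled and 564 to 2109 CPM in WT-labelled libraries, so donor sex changed together with the label. In both groups replicate 1 differed from the other 2. KO-labelled replicates 2 and 3 lay close together, with a chi-square over its degrees of freedom of 2.37, against 94.5 and 79.7 for their pairs with replicate 1. WT-labelled replicates 2 and 3 lay less close, with 25.2, against 205 and 231 for their pairs with replicate 1. The 6 hematopoietic markers checked were all present, with summed levels of 4191 to 5729 CPM in KO-labelled and 2992 to 3715 CPM in WT-labelled libraries. Of 35 markers of 8 other cell types, 23 stayed under 1 CPM in every library. The summed level of 4 megakaryocyte markers was 0.901 to 1.13 CPM in KO-labelled and 27.4 to 40.6 CPM in WT-labelled libraries, and that of 5 mast cell or basophil markers was 3.65 to 6.45 CPM in KO-labelled and 14.7 to 25.5 CPM in WT-labelled libraries. Pecam1, an endothelial marker that blood cells also express, had 58.7 to 104 CPM in KO-labelled and 258 to 329 CPM in WT-labelled libraries. The summed level of 7 myeloid markers overlapped between groups. It was 2252 to 3279 CPM in KO-labelled and 1098 to 3948 CPM in WT-labelled libraries. Among these markers, Itgam, Cebpa and Lyz2 overlapped between groups. Csf2rb, Csf1r and Fcgr3 were higher in every KO-labelled library, and Mpo was lower. Csf1r had 134 to 353 CPM in KO-labelled and 2.84 to 36.2 CPM in WT-labelled libraries. Fcgr3 had 432 to 583 CPM in KO-labelled and 25.7 to 110.3 CPM in WT-labelled libraries, and Mpo had 0.18 to 0.563 CPM in KO-labelled and 142 to 299 CPM in WT-labelled libraries. The part of these differences in the results was not tested. In bulk RNA, fewer cells of a type and less RNA per cell cannot be told apart.

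Among the 24 tested neighbours, 3 were higher and 9 were lower in KO-labelled libraries. The genes that rose were Ifngr1, Sgk1 and Vta1. The genes that fell were Perp, Nhsl1, Map7, Hivep2, Reps1, Map3k5, Ahi1, Myb and Cited2. A call here is an adjusted p under 0.05 in the quasi-likelihood test of edgeR, adjusted by Benjamini-Hochberg over all 12126 tested genes. The 12 called of 24 tested stand beside 27.3% called over all tested genes. The 9 lower calls were 5 without KO-labelled replicate 2 or 3, where 15.0% and 15.4% of all tested genes were called, 6 without KO-labelled replicate 1 (18.4%) or WT-labelled replicate 3 (2483 of 12400 genes), and 12 without WT-labelled replicate 1 (42.8%). In the higher direction the background was 13.7% of all tested genes, and in the lower direction it was likewise 13.7%. The median log2 fold change was −0.41 over the tested neighbours and −0.04 over all tested genes. The median size of the log2 fold change, without its sign, was 0.66 over the neighbours and 0.38 over all genes. Genes with few reads passed the low-count filter only through the group in which they were higher, so these shares describe the tested genes and not all 36. The groups did not overlap for 15 of the 24, beside 47.6% of all tested genes. KO-labelled values were the higher ones in 4 (background 24.1%) and the lower ones in 11 (background 23.5%). These 15 were the 12 called genes and Gpr126, Bclaf1 and Hbs1l.

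**Figure D1:**
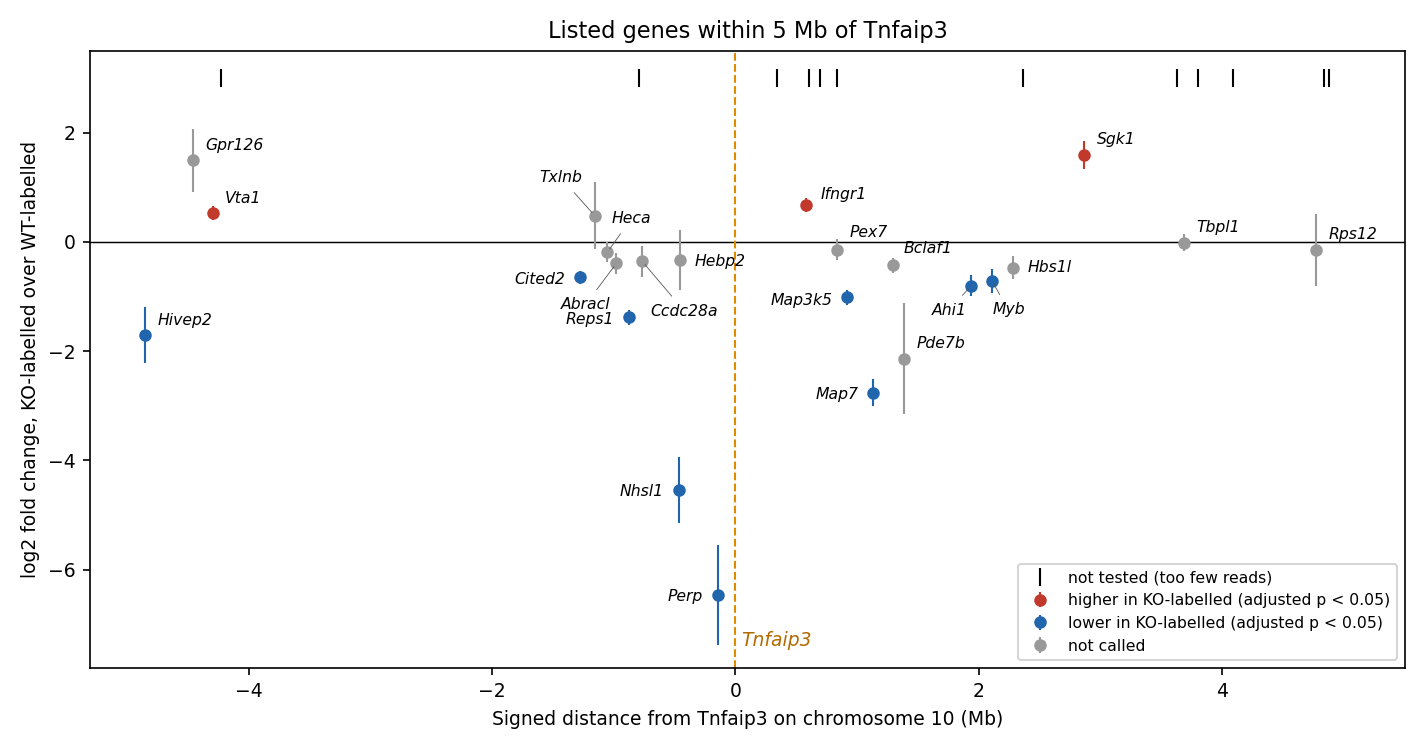
Log2 fold change of the 24 tested neighbours (KO-labelled over WT-labelled, bars are SE, 3 libraries per group) against signed distance from Tnfaip3 in Mb, with ticks at the top for the 12 that were not tested. Perp and Nhsl1, both on the side of lower coordinates and within 0.5 Mb, show the lowest values, −6.47 and −4.54.

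The promoters of 4 called genes are shown to let their base composition be compared. Myb and Map7 were lower in KO-labelled libraries, whereas Ifngr1 and Sgk1 were higher. Each sequence covers 250 bases before to 50 bases after a RefSeq start site of build GRCm38.p6, and capitals mark CG dinucleotides. For Sgk1, which has 6 such start sites, the one with the most CG dinucleotides is shown.
Myb (chr10:21160935-21161234, minus strand): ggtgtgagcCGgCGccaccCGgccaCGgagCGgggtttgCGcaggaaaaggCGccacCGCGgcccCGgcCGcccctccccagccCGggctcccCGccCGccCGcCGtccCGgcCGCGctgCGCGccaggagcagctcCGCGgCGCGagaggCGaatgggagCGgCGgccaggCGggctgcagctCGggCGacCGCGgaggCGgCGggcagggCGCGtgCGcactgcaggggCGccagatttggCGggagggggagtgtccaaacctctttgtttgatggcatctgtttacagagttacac
Map7 (chr10:20148670-20148969, plus strand): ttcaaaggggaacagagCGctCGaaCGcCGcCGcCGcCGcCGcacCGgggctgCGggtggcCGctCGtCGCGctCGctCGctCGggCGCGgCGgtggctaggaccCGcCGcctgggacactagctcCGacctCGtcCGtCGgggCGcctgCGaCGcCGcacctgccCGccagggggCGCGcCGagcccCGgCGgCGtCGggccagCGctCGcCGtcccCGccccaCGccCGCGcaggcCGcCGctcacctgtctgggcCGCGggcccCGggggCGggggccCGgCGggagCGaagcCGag
Ifngr1 (chr10:19591699-19591998, plus strand): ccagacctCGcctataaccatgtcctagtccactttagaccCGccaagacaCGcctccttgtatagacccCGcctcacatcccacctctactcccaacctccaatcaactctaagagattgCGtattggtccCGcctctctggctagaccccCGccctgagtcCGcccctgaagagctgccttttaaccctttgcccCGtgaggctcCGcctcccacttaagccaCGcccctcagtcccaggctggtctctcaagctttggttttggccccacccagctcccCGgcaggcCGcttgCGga
Sgk1 (chr10:21994416-21994715, plus strand): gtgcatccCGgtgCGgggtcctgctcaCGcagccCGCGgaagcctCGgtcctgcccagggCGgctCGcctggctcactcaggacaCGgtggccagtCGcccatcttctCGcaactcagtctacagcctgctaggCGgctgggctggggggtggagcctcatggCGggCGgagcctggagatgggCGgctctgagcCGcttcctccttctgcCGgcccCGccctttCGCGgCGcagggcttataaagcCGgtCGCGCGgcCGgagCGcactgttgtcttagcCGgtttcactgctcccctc
The promoters of Map7 and Myb held 55 and 40 CG dinucleotides, with 81.7% and 75.0% G and C. Those of Sgk1 and Ifngr1 held 28 and 14, with 69.7% and 60.3% G and C. Among other called genes that fell, Map3k5, Hivep2 and Cited2 held 47, 35 and 29. But 2 starts of Nhsl1, which fell, held 11 and 8, and the 2 starts of Ahi1, which also fell, held 31 and 3. Vta1, which rose, held 21. Not every called gene thus followed the order of those shown. The other 5 Sgk1 start sites held 3 to 10. Counts per gene combine all start sites, so the start used in these cells is not known.

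RefSeq promoters were found for 31 of the 36 neighbours, and 29 promoters belonged to 21 of the 24 tested ones. Their median was 18 CG dinucleotides, against 20 over 12139 promoters of tested genes, and the median share of G and C was 60.7% in either set. Both strands of each promoter were searched for 4 motifs. TATAAA, the TATA box, was found in 6.90% of the neighbours' promoters and 7.03% of all. Among the tested neighbours it was found only in start sites of Sgk1. Promoters and not genes were counted, so a gene with several start sites, such as Sgk1, weighs more in these shares and medians. CCAAT was found in 24.1% and 37.9%, and CGGAAG, the core bound by ETS factors, in 34.5% and 31.4%. The NF-κB consensus was found in 10.3% and 10.2%. The promoters of Myb, Map7, Map3k5 and Cited2, among others, held none of these motifs, and those of Hivep2, Ahi1 and Ccdc28a held the NF-κB consensus among the tested genes. A match describes the letters in this window and not a bound site.

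Of the neighbours that encode nuclear regulators, Myb, Cited2 and Hivep2 fell. Myb, on the minus strand at 21124935 to 21160984 and 2.11 Mb from Tnfaip3, had 305, 317 and 332 CPM in KO-labelled libraries, against 697, 433 and 441 CPM in WT-labelled libraries. All KO-labelled values lay below all WT-labelled values, and WT-labelled replicate 1 was the highest by far. The log2 fold change was −0.72 (SE 0.22; edgeR adjusted p = 0.047). Leaving out KO-labelled replicate 1, 2 or 3 ended the call (adjusted p = 0.14, 0.15 and 0.13), as did leaving out WT-labelled replicate 3 (0.060). In replicates 2 and 3 alone the difference was −0.44 (adjusted p = 0.0025), and the replicate 1 pair, which allows no test, gave −1.19. An unlisted gene on the opposite strand overlaps 559 bases of Myb exons.

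Cited2, a small protein that binds the coactivators CBP and p300 and limits HIF1, had 70.7, 64.5 and 63.9 CPM in KO-labelled libraries and 93.4, 111 and 108 CPM in WT-labelled libraries. The groups were separate and the libraries within each lay close together. Its log2 fold change was −0.65 (SE 0.12; edgeR adjusted p = 0.0082). The call was lost without KO-labelled replicate 2 (0.056) or 3 (0.052). Hivep2, a zinc finger protein that binds NF-κB-like sites, had 1.08, 0.606 and 1.49 CPM in KO-labelled libraries, against 2.67, 2.18 and 5.46 CPM in WT-labelled libraries. The groups did not overlap, and WT-labelled replicate 3 stood well above the other WT-labelled libraries. The log2 fold change was −1.71 (SE 0.52; edgeR adjusted p = 0.048), and leaving out KO-labelled replicate 1, 2 or 3 or WT-labelled replicate 2 or 3 ended the call (adjusted p = 0.13, 0.16, 0.081, 0.058 and 0.14). Unlisted genes on the opposite strand overlap Hivep2 exons over 946 bases in all.

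Bclaf1 and Tbpl1, the other expressed nuclear regulators, did not pass the test. Bclaf1, an RNA processing and transcription factor, had 217, 267 and 261 CPM in KO-labelled and 355, 319 and 330 CPM in WT-labelled libraries. These groups did not overlap, but the log2 fold change of −0.43 (SE 0.14) missed the threshold (edgeR adjusted p = 0.058). It passed without WT-labelled replicate 1 (0.044), where 42.8% of all tested genes were called, with upper-quartile scaling (0.047), in DESeq2 (0.012) and in replicates 2 and 3 alone (0.0083). Tbpl1, a relative of the TATA-binding protein, averaged 34.5 ± 1.66 CPM in KO-labelled and 34.9 ± 6.13 CPM in WT-labelled libraries (SD, n = 3 each), with a log2 fold change of −0.02 (SE 0.15).

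Of the genes next to Myb, Ahi1 fell and Hbs1l did not pass the test. Ahi1, a protein of the primary cilium whose locus is a known insertion site of murine leukemia virus, had 6.13, 5.11 and 6.74 CPM in KO-labelled libraries and 11.0, 9.76 and 10.5 CPM in WT-labelled libraries. It fell by 0.80 on the log2 scale (SE 0.20; edgeR adjusted p = 0.025). It was no longer called without KO-labelled replicate 1 (0.067), 2 (0.13) or 3 (0.072) or without WT-labelled replicate 2 (0.051) or 3 (0.063). Hbs1l, which works with Pelota to rescue stalled ribosomes, had 62.5, 55.6 and 58.5 CPM in KO-labelled libraries, against 111, 68.4 and 65.6 CPM in WT-labelled libraries. The groups did not overlap, WT-labelled replicate 1 stood well above the rest, and the log2 fold change was −0.47 (SE 0.21; edgeR adjusted p = 0.15). An antisense gene overlaps Hbs1l, and 32.9% of its 31-base words occur in transcripts of other genes, so some reads may not be its own. Aldh8a1, the next gene, had 3 reads in KO-labelled and 2 in WT-labelled libraries.

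Among receptor and kinase genes, Ifngr1 and Sgk1 rose whereas Map3k5 fell. Ifngr1, 0.576 Mb from Tnfaip3, had 294, 268 and 274 CPM in KO-labelled libraries, against 194, 168 and 163 CPM in WT-labelled libraries. Every KO-labelled library was above every WT-labelled one, and replicate 1 was the highest of each group. The log2 fold change was 0.67 (SE 0.13; edgeR adjusted p = 0.0085), 0.69 in replicates 2 and 3 alone and 0.60 in the replicate 1 pair. It missed the threshold with replicates 2 and 3 of each group summed into 1 sample (adjusted p = 0.12).

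Sgk1, a kinase induced by serum and glucocorticoids, had 27.8, 16.7 and 17.0 CPM in KO-labelled libraries and 7.68, 6.89 and 5.76 CPM in WT-labelled libraries. It was higher in every KO-labelled library, most of all in replicate 1. The log2 fold change of 1.60 (SE 0.26; edgeR adjusted p = 0.0047) kept its call in all 19 alternative settings run. Map3k5 had 12.5, 13.0 and 12.7 CPM in KO-labelled libraries, against 27.4, 26.1 and 23.4 CPM in WT-labelled libraries. Its KO-labelled values were nearly the same in the 3 libraries, with group means of 12.7 ± 0.257 and 25.6 ± 2.04 CPM (SD, n = 3). Map3k5 fell by 1.01 on the log2 scale (SE 0.14; edgeR adjusted p = 0.0023), a call missed with replicates 2 and 3 summed in both groups (0.061).

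Gpr126, an adhesion G protein-coupled receptor listed as Adgrg6 in the annotation, had 2.48, 1.34 and 1.13 CPM in KO-labelled and 0.250, 0.632 and 0.894 CPM in WT-labelled libraries. The groups did not overlap, but the log2 fold change of 1.49 (SE 0.58) did not pass (edgeR adjusted p = 0.10). Pde7b, a phosphodiesterase that degrades cAMP, had 0.225, 0.519 and 0.239 CPM in KO-labelled and 0.125, 3.04 and 1.34 CPM in WT-labelled libraries. These are 21 reads in KO-labelled and 83 in WT-labelled libraries. WT-labelled replicate 1 lay below the KO-labelled values. Pde7b passed without that library (edgeR adjusted p = 0.011, and 0.16 with it), where 42.8% of all tested genes were called. The receptor genes Nmbr, Il22ra2 and Il20ra had 2, 7 and 0 reads in KO-labelled libraries and 14, 15 and 1 in WT-labelled libraries.

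**Figure D2:**
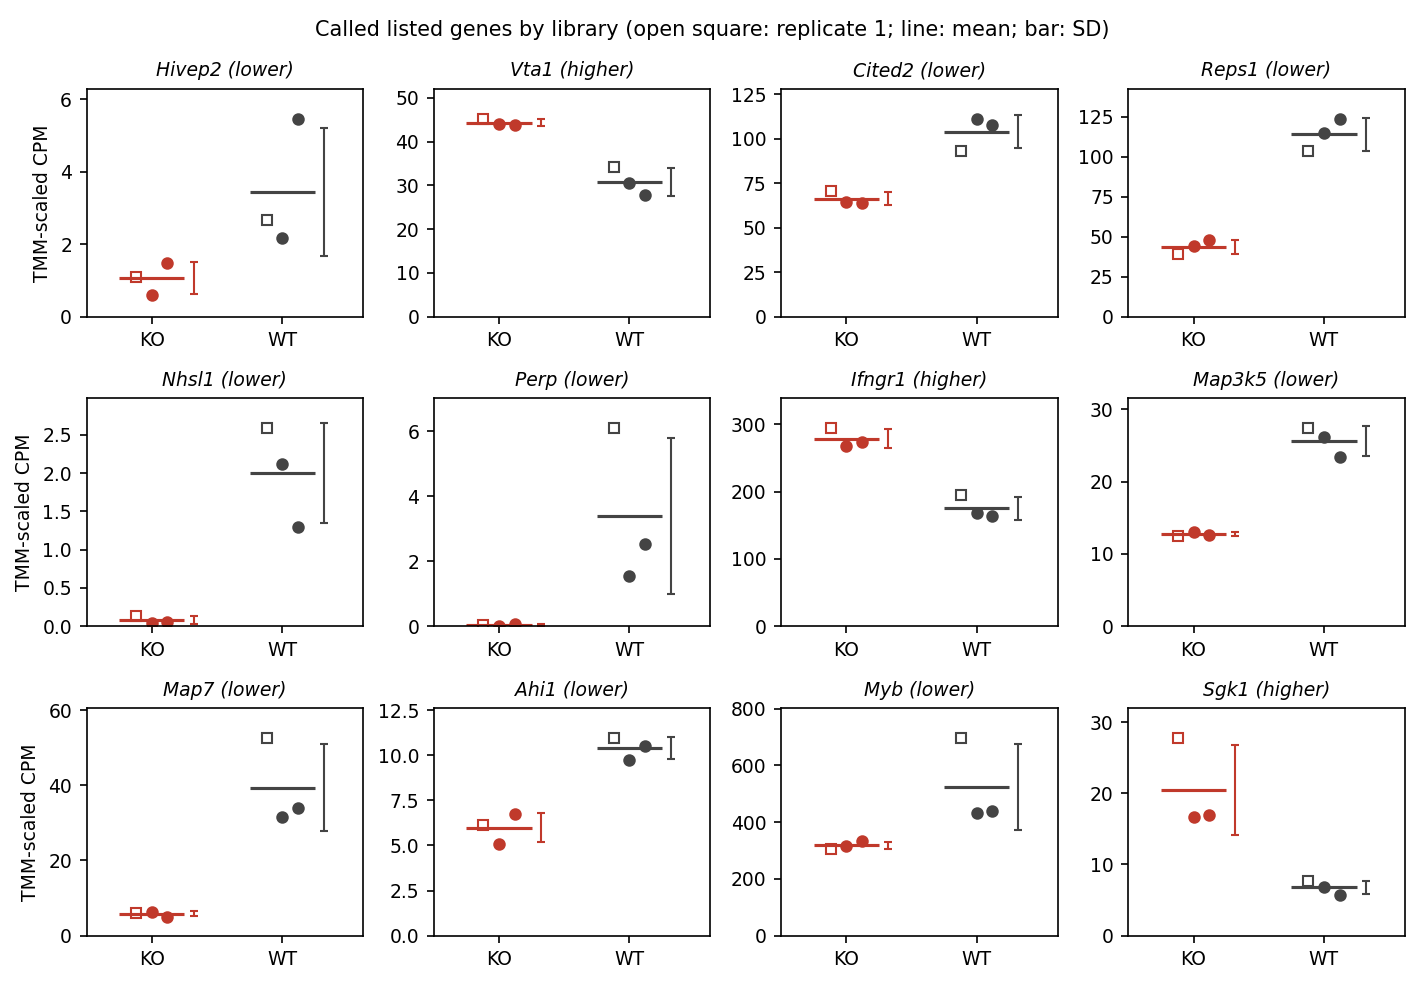
TMM-scaled CPM of the 12 called neighbours in each library, KO-labelled left and WT-labelled right, with replicate 1 as an open square, the mean as a line and the SD as a bar, each axis starting at 0. In every panel the 3 KO-labelled values lie apart from the 3 WT-labelled values. WT-labelled replicate 1 is the highest library for Myb, Perp and Map7, and by less for Nhsl1, Map3k5 and Ahi1.

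Of the genes of cell contacts, the cytoskeleton and membrane traffic, Perp, Nhsl1, Map7 and Reps1 fell, Vta1 rose and Abracl did not pass the test. Perp, a membrane protein of desmosomes and a target of p53 and p63, is the closest neighbour of Tnfaip3 in the list, 0.144 Mb away. It had 1, 0 and 1 reads in KO-labelled libraries, against 146, 27 and 51 reads in WT-labelled libraries; the WT-labelled reads amount to 6.09, 1.55 and 2.53 CPM. WT-labelled replicate 1 held more than the other WT-labelled libraries together. The ratio of KO-labelled to WT-labelled level was 0.00885 (95% exact counting interval 0.00107 to 0.0324), and edgeR gave a log2 fold change of −6.47 with an adjusted p of 0.0027. Leaving out WT-labelled replicate 1 gave a ratio of 0.0155 and a log2 fold change of −5.72, and leaving out KO-labelled replicate 2 gave 0.0141 and −5.88. Of 4 epithelial markers, Krt8 and Krt18 had no reads, and the summed level of all 4 was 0.0866 to 0.179 CPM in KO-labelled and 9.10 to 27.7 CPM in WT-labelled libraries. Their part in the Perp result was not tested.

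Nhsl1, a regulator of cell migration 0.467 Mb from Tnfaip3, had 3, 1 and 1 reads in KO-labelled libraries, against 62, 37 and 26 reads in WT-labelled libraries. Its level was 0.0794 ± 0.0490 CPM in KO-labelled and 2.00 ± 0.657 CPM in WT-labelled libraries (SD, n = 3). The log2 fold change was −4.54 (SE 0.61; edgeR adjusted p = 0.0021), and −5.15 without KO-labelled replicate 1. Hebp2, a heme-binding protein gene between Nhsl1 and Perp, had 0.997 ± 0.157 CPM in KO-labelled and 1.25 ± 0.775 CPM in WT-labelled libraries. Its groups overlapped and its log2 fold change was −0.33 (SE 0.55; edgeR adjusted p = 0.71), so the large falls on this side were not shared by every gene.

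Map7, a microtubule-binding protein that recruits kinesin-1, had 6.08, 6.28 and 5.07 CPM in KO-labelled libraries, against 52.7, 31.6 and 33.9 CPM in WT-labelled libraries. The level in WT-labelled cells was 6.77-fold that in KO-labelled cells by the fit, and replicate 1 was the highest of its group in WT-labelled libraries. The log2 fold change was −2.76 (SE 0.24; edgeR adjusted p = 3.6e-04). Reps1, an endocytic adaptor protein, had 39.1, 44.1 and 48.0 CPM in KO-labelled and 103, 114 and 124 CPM in WT-labelled libraries. It fell by 1.38 (SE 0.13; edgeR adjusted p = 5.6e-04), with −1.39 in replicates 2 and 3 alone and −1.40 in the replicate 1 pair. The calls for Perp, Nhsl1, Map7 and Reps1 held in all 19 alternative settings run.

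Vta1, a cofactor of the VPS4 ATPase that takes the ESCRT-III membrane-cutting machinery apart, had 45.2, 44.1 and 43.7 CPM in KO-labelled libraries and 34.2, 30.5 and 27.8 CPM in WT-labelled libraries. It rose by a log2 fold change of 0.53 (SE 0.13; edgeR adjusted p = 0.021). The call was lost without KO-labelled replicate 1 (0.061), 2 (0.089) or 3 (0.080) and without WT-labelled replicate 2 (0.058) or 3 (0.060). Abracl, a small protein linked to actin, was the second most abundant neighbour per length. It had 157, 115 and 125 CPM in KO-labelled libraries, against 158, 217 and 147 CPM in WT-labelled libraries, and was not called (log2 fold change −0.39, SE 0.20; edgeR adjusted p = 0.19). An unlisted gene on the opposite strand overlaps 237 bases of Abracl exons. Of its 31-base words, 23.4% occur in transcripts of other genes, so some reads may not be those of Abracl.

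Of the remaining tested neighbours none was called. Pex7, the import receptor of peroxisomes for proteins with the second type of targeting signal, averaged 41.9 ± 4.55 CPM in KO-labelled and 46.3 ± 10.6 CPM in WT-labelled libraries (SD, n = 3). Heca, Ccdc28a and Txlnb had log2 fold changes of −0.19 (SE 0.19), −0.36 (SE 0.29) and 0.48 (SE 0.61), and their groups overlapped. Heca passed without WT-labelled replicate 1 (edgeR adjusted p = 0.038), where 42.8% of all tested genes were called. Rps12, a protein of the small ribosomal subunit, had 1789, 595 and 562 CPM in KO-labelled libraries and 2055, 716 and 488 CPM in WT-labelled libraries. Its level followed the replicate and not the group: replicate 1 was above replicates 2 and 3 by 1.63 in KO-labelled and by 1.80 in WT-labelled libraries, as differences of log2(CPM + 0.5). Its log2 fold change between groups was −0.15 (SE 0.65; edgeR adjusted p = 0.90). Of its 31-base words, 29.8% occur in transcripts of other genes, so reads of its copies could not be told apart.

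**Figure D3:**
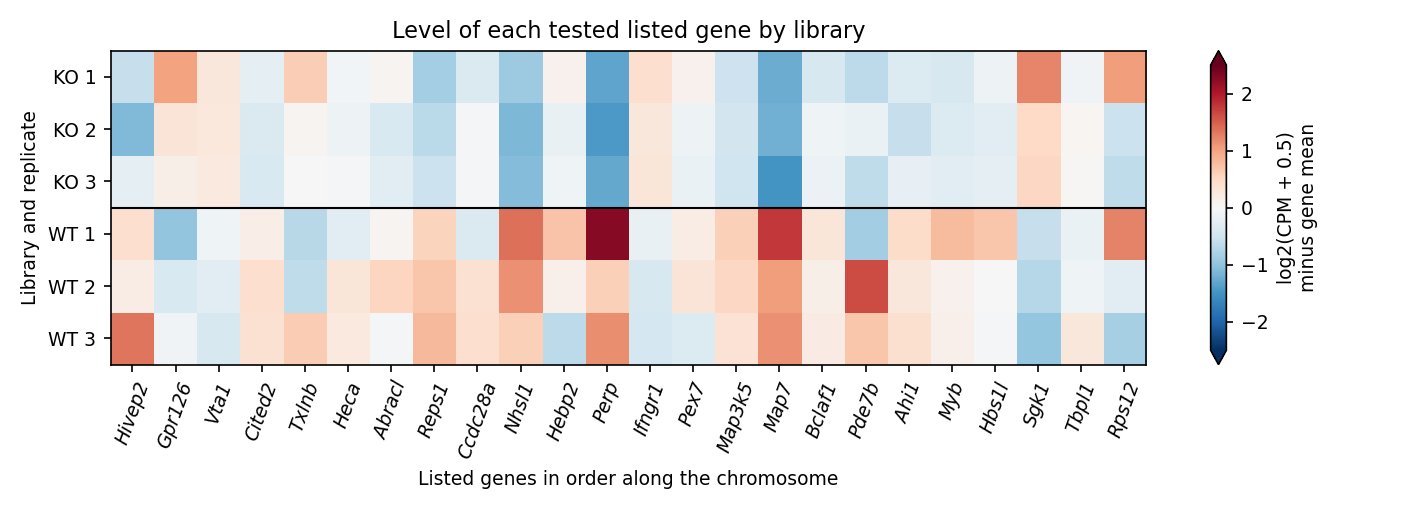
Log2(CPM + 0.5) of each tested neighbour in each library minus the gene's mean over the 6 libraries, with genes in order along the chromosome and the KO-labelled libraries above the WT-labelled ones. Perp and Map7 are low in all 3 KO-labelled libraries, and Rps12 is high in replicate 1 of both groups.

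The 12 untested neighbours had at most 54 reads over the 6 libraries. Olig3, a transcription factor of the nervous system, and Vnn1, a pantetheinase, had no read. Vnn3, the relative of Vnn1 in the same cluster, had 40, 8 and 6 reads in KO-labelled libraries and none in WT-labelled libraries. That is at least 5.62-fold higher in KO-labelled libraries against a floor of 3 counts per library, and at least 2.37-fold without KO-labelled replicate 1, which held most of the reads. Without the low-count filter, where 19.4% of all genes with reads were called, it passed (edgeR adjusted p = 0.020). Slc35d3, a nucleotide sugar transporter, had 0, 1 and 0 reads in KO-labelled and 10, 2 and 7 in WT-labelled libraries, and was not called without the filter (edgeR adjusted p = 0.067). Nmbr had 0, 2 and 0 reads in KO-labelled and 0, 1 and 13 reads in WT-labelled libraries, so WT-labelled replicate 3 alone held nearly all of them. Ect2l had 20 reads in KO-labelled and 23 in WT-labelled libraries, and Eya4 had 8 and 0. Slc2a12 and Tcf21 had 1 read in each group. Intervals and floors cover counting error only.

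Levels per length placed Rps12 first in both groups, with 484 CPM per kb of annotated exon in KO-labelled and 536 in WT-labelled libraries. Abracl followed with 125 in KO-labelled and 165 in WT-labelled libraries. The next were Ifngr1 with 97.9 and 61.5, Myb with 35.6 and 58.6 and Cited2 with 27.0 and 42.4 CPM per kb, KO-labelled and then WT-labelled. In WT-labelled libraries Ifngr1 and Myb differed by less than the SD of Myb, while in KO-labelled libraries they lay far apart. Exon lengths here are unions over all annotated transcripts, which lowers the value of genes with long rare isoforms.

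Distance from Tnfaip3 was next set against the calls. On the side of lower coordinates 1 of 12 tested neighbours rose and 5 fell, and on the side of higher coordinates 2 of 12 rose and 4 fell. Within 1 Mb 5 of 9 were called, from 1 to 2.5 Mb 4 of 9, and from 2.5 to 5 Mb 3 of 6. When every gene of the table in the 10 Mb region was counted, listed or not, 35 genes were tested, of which 4 rose and 16 fell (57.1% called, beside 27.3% over all tested genes). Over chromosome 10 the shares called were 63.6% of 11 genes within 1 Mb, 45.5% of 11 from 1 to 2.5 Mb, and 61.5% of 13 from 2.5 to 5 Mb, all bins with fewer than 20 genes. From 5 to 10 Mb 13.0% of 23 genes were called, from 10 to 20 Mb 30.2% of 43, from 20 to 40 Mb 18 of 58 genes, and beyond 40 Mb 26.1% of 422. The median size of the log2 fold change was 1.01, 0.65 and 1.60 in the bins up to 5 Mb and 0.31 to 0.48 in the bins beyond. From 2.5 to 5 Mb, 2 genes rose and 6 fell. Among those that fell, E030030I06Rik, Raet1e, H60b, Raet1d and Gm10825 lie together at 3.10 to 3.39 Mb. Raet1e overlaps H60b and Raet1d in exons, and 90.9% of the 31-base words of Gm10825 occur in transcripts of other genes. These genes may thus not be separate measurements, and those with few reads passed the low-count filter only through the higher group. The shares by distance are a description of 6 libraries, and no test was made of the difference between bins.

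**Figure D4:**
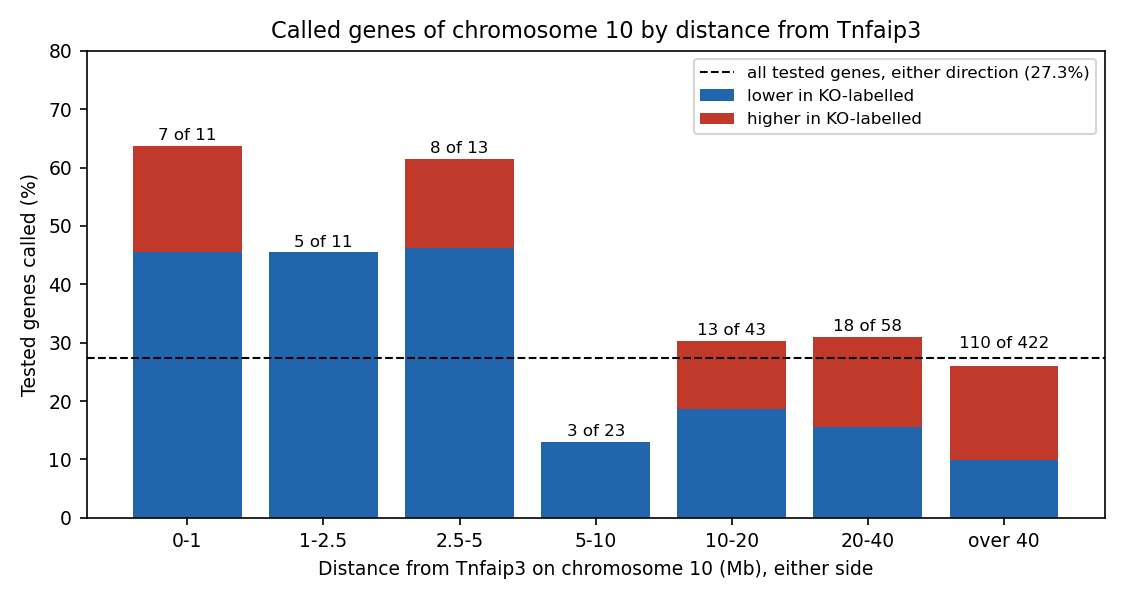
Share of tested chromosome 10 genes called lower (blue) and higher (red) in KO-labelled libraries, by distance from Tnfaip3 in Mb on either side, with the number called of the number tested above each bar. The 3 bars up to 5 Mb reach 45.5% to 63.6%, above the dashed line for all tested genes at 27.3%, and the bar from 5 to 10 Mb reaches 13.0%.

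In replicates 2 and 3 alone, where 52.9% of all tested genes were called, 18 of 25 tested neighbours were called. Of these 3 were higher (background 25.8%) and 15 lower (background 27.1%). Called lower there but not in all 6 libraries were Bclaf1, Heca, Pde7b, Abracl, Hbs1l and Ccdc28a (edgeR adjusted p = 0.0083, 0.017, 0.017, 0.025, 0.035 and 0.041). In that setting the bins up to 5 Mb had 75.0%, 81.8% and 64.3% called, the bin from 5 to 10 Mb 45.8%, and the bins beyond 39.5% to 55.9%. The tested genes just inside the 5 Mb limit were Hivep2 and Gpr126 at lower coordinates, with −1.71 and 1.49 on the log2 scale, and Snord100 and Rps12 at higher coordinates, with −0.31 and −0.15. Just outside it lay Adat2 (−0.28) and Pex3 (0.08) at lower coordinates and Stx7 (0.18) and Enpp1 (−3.01) at higher coordinates.

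Genes that work with the neighbours but lie elsewhere were counted from 10 lists. The lists were chosen with earlier results of these data known, so their counts and medians are a description only. Among 22 tested genes of the MYB family, its partners and its reported myeloid targets, 3 rose, 8 fell and 11 were not called, beside 27.3% of all tested genes called in either direction and 13.7% in each, with a median log2 fold change of −0.62 against −0.04 over all tested genes. Kit, the receptor for SCF, had 102 ± 1.36 CPM in KO-labelled and 353 ± 48.0 CPM in WT-labelled libraries. Bcl2, a survival gene, had 27.3 ± 1.85 CPM in KO-labelled and 118 ± 8.45 CPM in WT-labelled libraries. Cd34, a progenitor surface marker, had 1.63 ± 0.419 CPM in KO-labelled and 613 ± 17.5 CPM in WT-labelled libraries (SD, n = 3 each). The called members Gfi1, Cebpb and Hoxa9 rose, by 1.35, 1.97 and 0.82 on the log2 scale. Several of these genes also mark the maturation stage of myeloid cells, and the part of stage in the Myb result was not tested.

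Of 11 tested genes of interferon gamma signalling 3 rose, 0 fell and 8 were not called (27.3%, the same as the background). Ifngr2, the partner chain of Ifngr1, had 164 ± 20.4 CPM in KO-labelled and 84.0 ± 29.9 CPM in WT-labelled libraries (log2 fold change 0.97, SE 0.28; edgeR adjusted p = 0.040). It missed the threshold without KO-labelled replicate 1, 2 or 3 (0.13, 0.078 and 0.087) and without WT-labelled replicate 2 or 3 (0.052 and 0.081). The same background of 27.3% applies to the lists that follow. Of 18 genes of the ASK1 cascade 2 rose and 1 fell (16.7% called). Map3k6, a relative of Map3k5, had 9.94 ± 1.37 CPM in KO-labelled and 2.22 ± 1.48 CPM in WT-labelled libraries, opposite in direction to Map3k5. Its log2 fold change was 2.14 (SE 0.46; edgeR adjusted p = 0.014) and became 2.85 when WT-labelled replicate 1 was left out. It missed the threshold without either KO-labelled or WT-labelled replicate 3 (0.054 each). Of 14 regulators and substrates of SGK1 and glucocorticoid-induced genes, 2 rose and 1 fell (21.4%), and of 8 tested genes around CITED2 and HIF1 2 rose and 1 fell (37.5%). Of 13 peroxisomal import genes 3 rose (23.1%) and of 12 ESCRT-III and VPS4 genes 1 rose (8.33%), with none called lower in either list. Of 5 tested class II cytokine receptors 1 rose. None of 9 ribosome rescue genes and none of 5 partners of BCLAF1 was called.

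**Figure D5:**
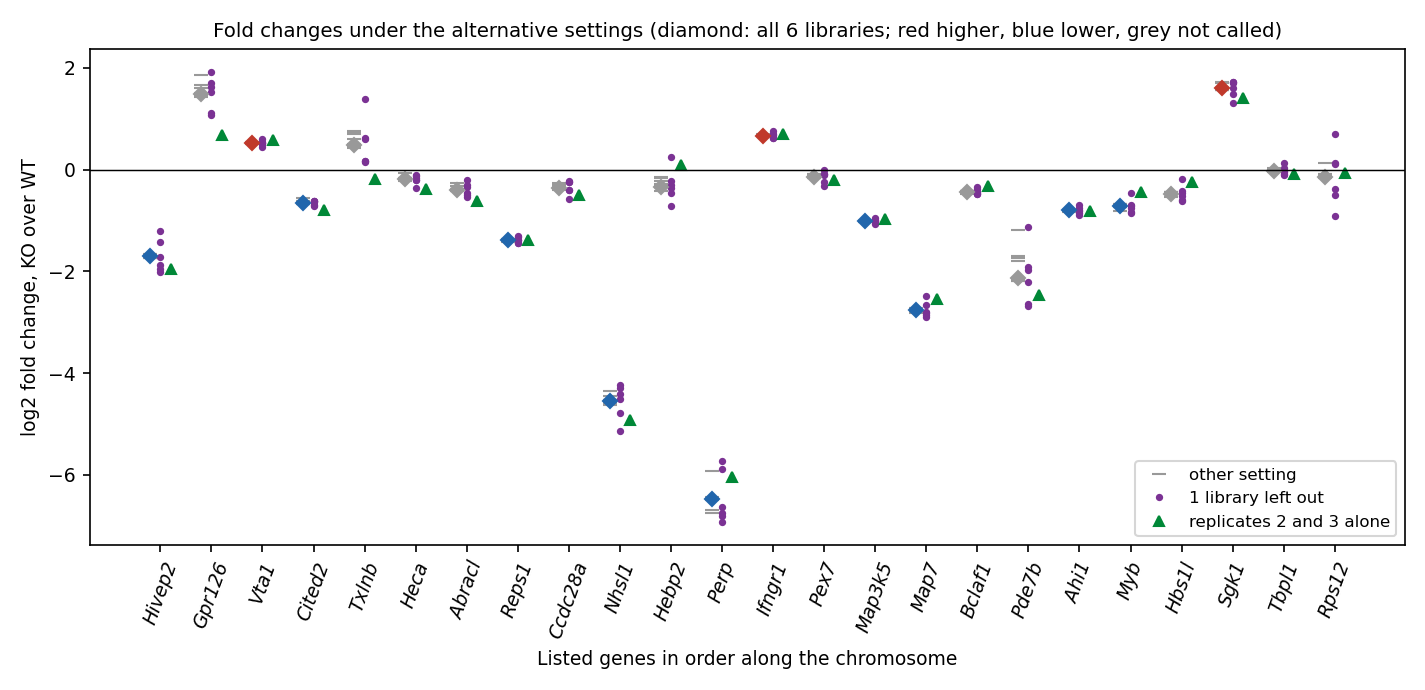
Log2 fold change (KO-labelled over WT-labelled) of each tested neighbour in order along the chromosome, with all 6 libraries (diamond), 1 library left out (dots), replicates 2 and 3 alone (triangle) and the other settings (dashes). The 12 called genes keep their sign in every setting shown, while the uncalled Hebp2, Rps12, Tbpl1 and Txlnb cross 0.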

How the data were processed

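The authors deposited 1 table of raw counts, 1 whole number for each gene in each library, not normalized. Per the labels' protocols, stranded TruSeq mRNA libraries were sequenced, and per the submitters' processing notes the tools were FastQC 0.11.7, HISAT2 2.0.5 and featureCounts 1.5.2 with mm10. The sources used here name neither annotation nor strand setting, so overlapping antisense genes cannot be told apart.

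Counts were fitted in R 4.3.3 with edgeR 4.0.16 (TMM, default low-count filter, robust quasi-likelihood test, all 6 libraries, no block), which left 12126 genes. Alternatives used DESeq2 1.42.0 and limma 3.58.1. The SE is the log2 fold change divided by the square root of F. The procedure was also run on simulated counts drawn without a shift of replicate 1. That setting differs from these libraries, so no conclusion is drawn from it. Positions and exon lengths came from GENCODE M21 (GRCm38, the same assembly as mm10), where 98.2% of 24062 symbols had 1 position. Shared 31-base words were counted over both strands.

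The members and lists were chosen with earlier results of these data known. The rule gave values for Tnfaip3, called members, 5 members of interest and the 3 nearest on each side; other members were counted and named. The labels do not state whether the 3 replicates were separate cultures or animals; p-values therefore reflect only how these libraries vary, which may be technical. Leaving out single libraries for genes with few reads and for genes outside the list was chosen after seeing the data.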

Additional observations from a re-analysis of the deposited data

How the results depend on the processing

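Over 19 refits of the tested neighbours, 404 of 455 gene values kept their side of the threshold, 40 lost a call and 11 gained one. No value of the 12 called genes changed sign, while the uncalled Hebp2, Rps12, Tbpl1 and Txlnb did so in 1 to 4 refits each. The number of neighbours called higher (3) ranged from 2 to 3 and the number called lower (9) from 5 to 12 when 1 library was left out, while the share of all tested genes called ranged from 15.0% without KO-labelled replicate 2 to 42.8% without WT-labelled replicate 1. With KO-labelled replicates 2 and 3 summed, 5 were lower, and with replicates 2 and 3 summed in both groups, 1 was higher and 4 lower; these fits called 15.3% and 8.44% of all tested genes. The cause was not tested. Replicates 2 and 3 alone gave 15 lower (background 27.1%). A 2-fold minimum left 1 higher (background 8.15%), as did a limit of 2.5 Mb. Counting all genes of the region gave 20 called, against 12 within 2.5 Mb and 12 among the listed genes, which follows from the smaller sets. Hivep2 was also lost with RLE scaling, library totals, limma-voom and a term for replicate 1 (adjusted p = 0.050, 0.052, 0.055 and 0.065). With a replicate block 2 neighbours were higher and 7 lower, beside 16.7% of all tested genes called, and Vta1, Ahi1 and Myb missed the threshold (adjusted p = 0.064, 0.072 and 0.10). Over all genes, same-numbered libraries did not deviate together (correlations of −0.07, −0.14 and 0.04), so the numbers were not taken to pair the libraries. Yet replicate 1 was high in both groups for genes such as Rps12 and Gapdh. Gapdh had 2716 CPM in KO-labelled and 2645 CPM in WT-labelled replicate 1, against 167 to 254 CPM in the other libraries. With a term for replicate 1 in the fit, 3 neighbours were higher and 8 lower, beside 29.1% of all tested genes called. Whether replicate 1 was a batch shared by both groups was not tested. At this depth, genes with under about 3 reads per library could not be compared.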

Other observations

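The region also held unlisted genes with large differences, named here after their values were seen. Of 32 unlisted genes in the region, 11 were tested. Of these, 1 rose and 7 fell in KO-labelled libraries by edgeR's quasi-likelihood test, beside 13.7% of all tested genes called in each direction. Some with few reads, such as H60b and 4930444F02Rik, passed the low-count filter only through the group in which they were higher. Whether their calls hold without the filter is not given here, and these counts describe the tested genes only. A cluster of genes for ligands of the receptor NKG2D, which natural killer cells use to recognise stressed cells, lies about 3.1 to 3.4 Mb from Tnfaip3. H60b had no read in KO-labelled libraries and 1.29, 0.976 and 0.993 CPM in WT-labelled libraries, at least 7.35-fold lower against a floor of 3 counts per library. Raet1d had 0.406, 0.346 and 0.298 CPM in KO-labelled libraries, against 4.97, 20.8 and 12.7 CPM in WT-labelled libraries (log2 fold change −5.16, SE 0.61; edgeR adjusted p = 0.0012). Raet1e had 0.464 ± 0.106 CPM in KO-labelled and 3.07 ± 1.48 CPM in WT-labelled libraries (SD, n = 3 each; edgeR adjusted p = 0.0093, and 0.052 without KO-labelled replicate 2). Raet1d and Raet1e share 67.1% and 55.5% of their 31-base words with transcripts of other genes and overlap in exons on the same strand, so reads could be split or lost between them.

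Closer to Tnfaip3, D10Bwg1379e (Arfgef3 in the annotation), 0.257 Mb away, had 5.68, 5.76 and 4.66 CPM in KO-labelled libraries, against 28.4, 37.7 and 46.4 CPM in WT-labelled libraries (log2 fold change −2.80, SE 0.23; edgeR adjusted p = 2.5e-04). The noncoding gene 4930444F02Rik, 0.169 Mb away, went the other way, with 3.33, 3.38 and 4.48 CPM in KO-labelled and 0.292, 0 and 0.0496 CPM in WT-labelled libraries (log2 fold change 4.84; edgeR adjusted p = 0.0048). Its log2 fold change was 6.83 without WT-labelled replicate 1. Mtfr2, a gene of mitochondrial fission beside Bclaf1, had 33.8 ± 3.64 CPM in KO-labelled and 66.1 ± 16.8 CPM in WT-labelled libraries (edgeR adjusted p = 0.012, and 0.058 without KO-labelled replicate 1).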
